A study of Mus musculus with 54 samples.

Results

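This account follows 10 genes for proteins of the acute phase response in mouse liver, out of 13815 genes measured by RNA-seq. They were taken by name: the serum amyloid A genes Saa1, Saa2, Saa3 and Saa4, the lipocalin gene Lcn2, the orosomucoid genes Orm1 and Orm2, haptoglobin (Hp), serum amyloid P component (Apcs) and C-reactive protein (Crp). Each had 1 row of values, and none was lost to a filter here. RNA came from whole liver of Flcn lox/lox mice, with 3 libraries in each of 5 groups. Control mice had received an AAV8 vector carrying GFP and LiFKO mice the same dose of one carrying Cre, both under the hepatocyte promoter TBG, so that Flcn was removed from hepatocytes of LiFKO mice. Both kinds were studied on normal chow and on the AMLN diet, a feed with much fat, fructose and cholesterol that is used to bring on fatty liver disease. The remaining group, DKO, was fed AMLN only. It had the Cre vector in Flcn lox/lox; Tfe3 -/Y mice, a line that lacks Tfe3 in the whole body, so that cells other than hepatocytes lacked Tfe3 too. Diets lasted 17 to 18.5 weeks and mice were fasted for 4 to 6 h. The ages of the mice are not given in the sources used here, and neither a DKO group on chow nor RNA of Tfe3 knockout mice with intact Flcn is analysed here. TFE3 ChIP-seq peak lists came from liver of other mice, fed freely on chow, or for 9 days on the FPC diet. In the groups called Control+1c and LiFKO+1c, the FPC mice also received an AAV8 transgene for HA-tagged nuclear SREBP-1c under the promoter ApoE/AAT. The dose of GFP or Cre vector was 1.5e11 genome copies in the mice of the RNA libraries, of the chow ChIP and of the +1c groups, and 2.5e11 in the FPC Control and LiFKO mice.

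Acute phase proteins are blood proteins that the liver makes in greater or lesser amount during infection or tissue injury. Interleukin 6, acting through STAT3, and interleukin 1, acting through NF-kappaB and C/EBP factors, are the best known signals for their genes in hepatocytes. Saa1 and Saa2 encode lipoprotein-bound proteins whose induction is among the steepest of the response, and Lcn2 encodes a protein that binds bacterial siderophores and so withholds iron. FLCN is part of the machinery that lets mTORC1 phosphorylate TFE3 and its relative TFEB. Without FLCN these factors enter the nucleus, where they bind short E-box and M-box sequences.

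The values are the authors' log2 expression values, which were quantile normalized, so that a difference of 1 is a doubling. Levels can be compared between groups for 1 gene but not between genes, since no scaling for gene length is stated. Flcn, the targeted gene, was lower in LiFKO than in Control on chow by a log2 difference of -1.03 (SE 0.17, limma adjusted p = 0.000394), on AMLN by -0.57 (SE 0.17, adjusted p = 0.0257), and in DKO than in AMLN Control by -1.49 (SE 0.17, adjusted p = 0.000882). The Tfe3 row averaged 9.99 ± 0.18 (SD, n = 3) in the libraries labelled DKO and 10.25 ± 0.05 (SD, n = 3) in AMLN Control (adjusted p = 0.384). The Tfe3 value covers the whole gene and does not show whether the deleted part is missing, so the label of the DKO libraries has no check from Tfe3. The labels do not say whether libraries of a group are from different mice, so the p-values measure only the spread between libraries, which may be technical. In whole liver, fewer cells of a type and less RNA per cell cannot be told apart.

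The sequences just before the start of the gene are shown for the members on which the results turn: Saa1 and Saa2 because they moved together and are nearly the same sequence, Lcn2 for its wide range of levels, and Apcs and Crp because TFE3 peaks lay at their starts. RefSeq (GRCm38.p6) gave an entry for 8 of the 10 members and none for Orm1 and Hp. Each line below holds the 250 bases before the start, 5′ to 3′ along the gene. Capitals mark a match to the C/EBP-type sequence TTGCNNAA, the STAT-type sequence TTCNNNGAA or the M-box sequence TCATGTG, on either strand.
Saa1: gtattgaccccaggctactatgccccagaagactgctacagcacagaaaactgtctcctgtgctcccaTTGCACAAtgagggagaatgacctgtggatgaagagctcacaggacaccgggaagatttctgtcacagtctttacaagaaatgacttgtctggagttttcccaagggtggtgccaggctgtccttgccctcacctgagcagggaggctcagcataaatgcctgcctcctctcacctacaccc
Saa2: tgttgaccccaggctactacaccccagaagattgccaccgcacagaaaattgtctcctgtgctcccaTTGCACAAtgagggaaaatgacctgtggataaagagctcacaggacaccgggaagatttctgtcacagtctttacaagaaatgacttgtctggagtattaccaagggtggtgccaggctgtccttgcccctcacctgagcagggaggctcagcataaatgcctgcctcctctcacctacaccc
Lcn2: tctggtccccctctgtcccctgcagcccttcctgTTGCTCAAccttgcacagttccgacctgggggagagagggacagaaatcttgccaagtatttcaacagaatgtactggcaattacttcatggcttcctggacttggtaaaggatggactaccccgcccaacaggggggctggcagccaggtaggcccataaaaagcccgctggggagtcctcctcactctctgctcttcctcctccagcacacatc
Apcs: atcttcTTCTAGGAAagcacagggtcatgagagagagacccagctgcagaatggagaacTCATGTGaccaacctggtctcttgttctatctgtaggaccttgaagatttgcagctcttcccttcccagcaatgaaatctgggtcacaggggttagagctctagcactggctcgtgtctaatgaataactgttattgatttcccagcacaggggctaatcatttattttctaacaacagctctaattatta
Crp: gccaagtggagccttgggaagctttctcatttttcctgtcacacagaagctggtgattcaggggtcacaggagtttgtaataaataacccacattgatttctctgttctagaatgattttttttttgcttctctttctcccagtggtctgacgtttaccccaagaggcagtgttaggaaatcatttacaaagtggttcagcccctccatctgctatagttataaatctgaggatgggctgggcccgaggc
The Saa1 and Saa2 stretches were identical in 238 of 251 aligned columns (94.8%), with 11 mismatches and 2 gap columns, while every other pair among the 4 Saa genes reached 43.8% to 48.5%. Because the 2 genes are near copies, reads of one may have been counted for the other or dropped, and their values are not fully separate measurements. The same holds for Orm1 and Orm2 with the related Orm3.

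A C/EBP-type match stood in 6 of the 8 members (Saa1, Saa2, Saa3, Saa4, Lcn2 and Orm2), against 9.56% of all 32851 RefSeq promoter stretches of the same length. In Saa1 it lay 182 to 175 bases before the start, in Saa2 183 to 176, in Orm2 120 to 113, and in Lcn2 216 to 209. Apcs and Crp had none. The STAT-type sequence was found in Apcs alone of the 8, against 7.02% of all stretches. Of the sequences that TFE3 is known to bind, the E-box CACGTG was in none of the 8 (6.02% of all stretches), and the M-box TCATGTG was in Apcs, 191 to 185 bases before its start (3.25% of all stretches). A match is a description of letters, not a bound site.

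On the AMLN diet, livers of Control mice had far more RNA of Lcn2, Saa2 and Saa1 than on chow, and somewhat more of Orm2, Apcs and Orm1, while Crp was lower. In all, 7 of the 10 members passed the test at an adjusted p under 0.05 over all genes, 6 higher and 1 lower, where 22.8% of the 13815 genes passed, 11.2% higher and 11.6% lower. The 3 libraries of one diet did not overlap the 3 of the other in any of the 10 members, which held for 40.9% of all genes. The members' median log2 difference was 0.97, beside -0.04 over all genes.

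Saa2 read 9.90, 9.25 and 8.49 in chow Control and 12.47, 12.57 and 13.17 in AMLN Control. The difference was 3.53 (SE 0.53, adjusted p = 0.00075), 11.5-fold. Its near copy Saa1 read 11.44, 10.44 and 10.06 on chow and 12.93, 13.01 and 13.80 on AMLN, a difference of 2.6 (SE 0.45, adjusted p = 0.00162). In both genes the first chow library was the highest of its group, and all AMLN libraries stood above it.

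Lcn2 moved furthest. It read 8.48, 7.29 and 6.53 in chow Control and 11.31, 11.09 and 11.68 in AMLN Control, a difference of 3.93 (SE 0.59, adjusted p = 0.000744), 15.2-fold. The chow libraries were far more spread than the AMLN libraries, and the groups stood well apart. Whichever library was left out, the difference stayed between 3.47 and 4.45 and passed the test.

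The orosomucoids, carrier proteins of plasma for basic and neutral drugs and lipids, rose less. Orm2 read 10.34, 9.16 and 8.72 on chow and 11.56, 11.68 and 10.56 on AMLN (difference 1.86, SE 0.47, adjusted p = 0.0122), and its highest chow library came close to its lowest AMLN library. Orm1 read 14.67, 14.25 and 14.13 on chow and 14.94, 14.97 and 14.90 on AMLN (0.59, SE 0.17, adjusted p = 0.0221), and lost its call in 4 of 6 fits that left out 1 library. Saa3, which in mouse is made by macrophages and adipocytes as well as by liver, had a difference of 1.24 that did not pass (SE 0.52, adjusted p = 0.0969). Its libraries read 7.53, 7.90 and 8.02 on chow and 8.71, 8.64 and 9.82 on AMLN, so they did not overlap.

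The pentraxins, ring-shaped proteins that bind microbes and dying cells, went opposite ways. Apcs, a main acute phase protein of the mouse, rose from 11.40, 11.01 and 10.88 to 11.68, 11.66 and 12.04 (0.70, SE 0.21, adjusted p = 0.0252). Crp, which responds little in mice, fell from 14.64, 14.75 and 14.34 to 13.95, 14.06 and 14.12 (-0.53, SE 0.13, adjusted p = 0.012). Apcs lost its call in 3 of the 6 fits without 1 library and Crp in 1. Neither Hp, the haemoglobin-binding protein (0.46, SE 0.28, adjusted p = 0.248), nor Saa4, which is made constantly rather than on demand (-0.27, SE 0.22, adjusted p = 0.408), passed the test. Without chow Control replicate 2, 4 members passed in place of 7, where 14% of all genes passed in place of 22.8%.

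**Figure D1:**
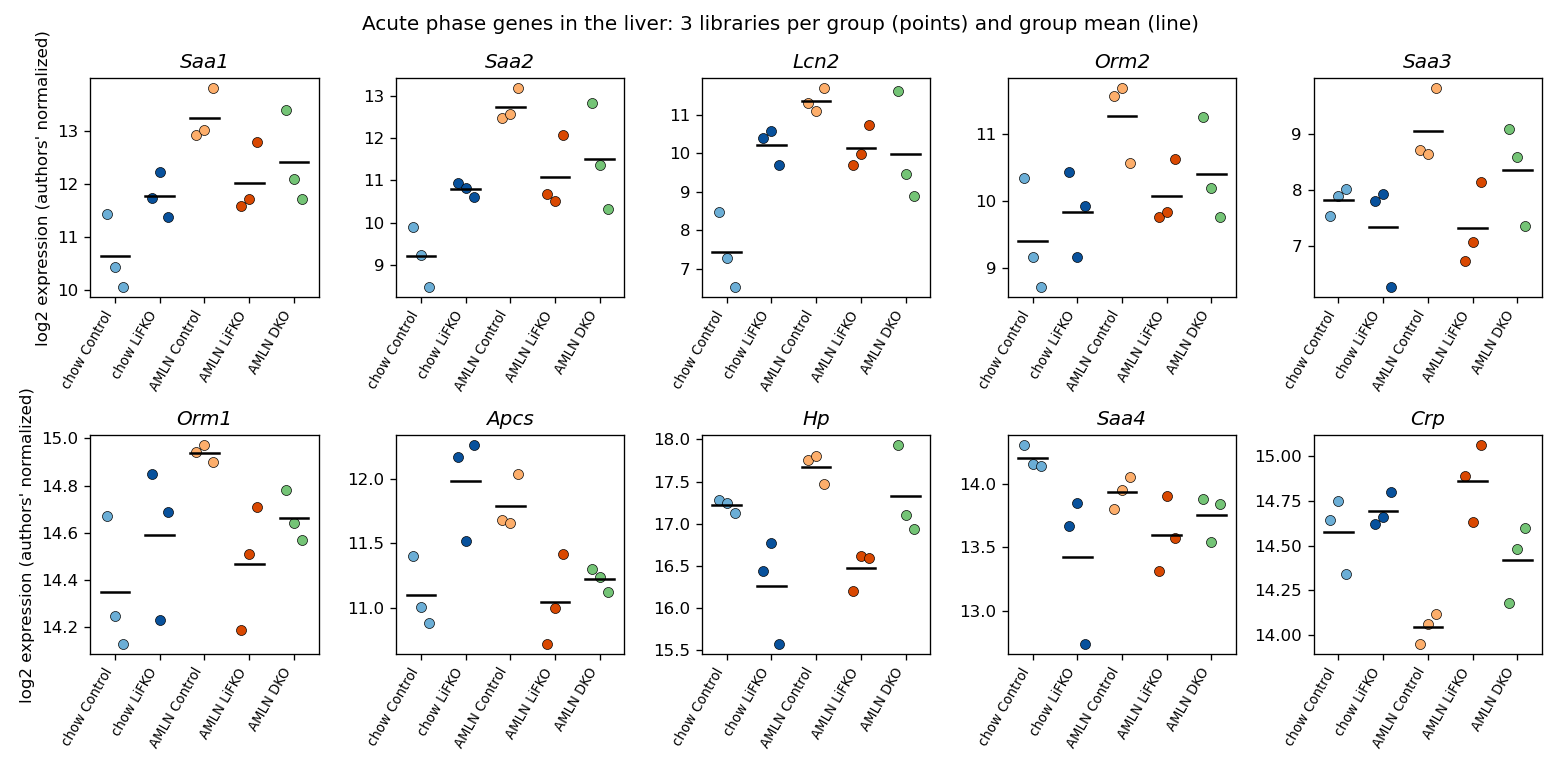
Log2 expression (vertical axis, its own scale in each panel) of the 10 acute phase genes in 5 groups; each point is 1 library and each line the mean of 3. In chow Control, Lcn2 lies at 6.53 to 8.48 and in the other 4 groups at 8.89 to 11.68. Hp is lowest in the 2 LiFKO groups, with no library above 16.77, and Crp is lowest in AMLN Control.

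On chow, loss of Flcn alone went with more Lcn2, Saa2 and Apcs and less Hp and Saa4. The test passed for 5 of the 10 members, 3 higher and 2 lower, where 25.7% of all genes passed, 12.5% higher and 13.2% lower. Lcn2 rose from 8.48, 7.29 and 6.53 in Control to 10.38, 10.58 and 9.70 in LiFKO, a difference of 2.79 (SE 0.59, adjusted p = 0.00294), 6.90-fold. This call held in each of the 6 fits without 1 library, with differences from 2.33 to 3.31. Apcs rose from 11.40, 11.01 and 10.88 to 12.17, 11.52 and 12.26 (0.89, SE 0.21, adjusted p = 0.00545), and also kept its call in all 6.

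Saa2 rose from 9.90, 9.25 and 8.49 to 10.94, 10.83 and 10.62 (1.59, SE 0.53, adjusted p = 0.0399). All 3 LiFKO libraries lay above all 3 Control libraries, but the call was lost in 5 of the 6 fits without 1 library and under 2 other settings of limma. Saa1 had a difference of 1.13 that did not pass (SE 0.45, adjusted p = 0.0792): LiFKO libraries read 11.74, 12.23 and 11.37, and the first Control library, at 11.44, lay among them. Without that library its adjusted p was 0.0321.

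The genes with less RNA in LiFKO were Hp and Saa4. Hp read 17.28, 17.24 and 17.13 in Control and 16.44, 16.77 and 15.57 in LiFKO (-0.96, SE 0.28, adjusted p = 0.0215), with Control tight and the third LiFKO library well below its partners. Saa4 read 14.30, 14.15 and 14.14 in Control and 13.67, 13.85 and 12.74 in LiFKO (-0.78, SE 0.22, adjusted p = 0.0188), with the same library lowest. Without the third LiFKO library the Saa4 difference was -0.44 and the Hp difference -0.61, neither of which passed. In that fit 2 of the 10 members passed in place of 5, where 21% of all genes passed in place of 25.7%. Without chow Control replicate 2, 3 members passed, where 19.5% of all genes did. The Hp call was lost in 3 of the 6 fits without 1 library and the Saa4 call in 2. Saa3, Orm1, Orm2 and Crp had differences between -0.48 and 0.44 with adjusted p from 0.323 to 0.574.

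On AMLN, LiFKO libraries had less Hp, Saa3, Saa2 and Apcs and more Crp, and these 5 of 10 members passed, where 19.7% of all genes passed, 10.1% higher and 9.63% lower. Saa2 and Apcs had risen in LiFKO on chow, Hp had fallen there too, and Saa3 and Crp had not passed on chow. The median log2 difference of the 10 members was -1.20, beside -0.02 over all genes, and 7 members did not overlap in the lower direction, as did 18.3% of all genes.

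Hp read 17.76, 17.80 and 17.47 in AMLN Control and 16.20, 16.61 and 16.59 in AMLN LiFKO, a difference of -1.21 (SE 0.28, adjusted p = 0.00696), 2.31-fold lower. Crp read 13.95, 14.06 and 14.12 in Control and 14.89, 14.63 and 15.06 in LiFKO, a difference of 0.82 (SE 0.13, adjusted p = 0.000641). These 2 calls held in all 6 fits without 1 library. Apcs went from 11.68, 11.66 and 12.04 to 10.72, 11 and 11.42 (-0.75, SE 0.21, adjusted p = 0.0185), the reverse of its direction on chow, and lost its call in 3 of 6.

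Saa3 went from 8.71, 8.64 and 9.82 to 6.74, 7.08 and 8.15 (-1.73, SE 0.52, adjusted p = 0.029). Saa2 went from 12.47, 12.57 and 13.17 to 10.68, 10.51 and 12.06 (-1.65, SE 0.53, adjusted p = 0.0401). In both, the third LiFKO library was the highest of its group, and still lay below every Control library. The Saa2 call was lost in 5 of 6 fits without 1 library and the Saa3 call in 3 of 6.

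Saa1 (-1.23, SE 0.45, adjusted p = 0.0703), Orm2 (-1.20, SE 0.47, adjusted p = 0.0904), Orm1 (-0.47, SE 0.17, adjusted p = 0.0668) and Lcn2 (-1.23, SE 0.59, adjusted p = 0.166) did not pass. Lcn2 libraries of LiFKO read 9.68, 9.97 and 10.74, all below the lowest Control library at 11.09. Saa1 libraries of LiFKO read 11.58, 11.71 and 12.78, all below the lowest Control library at 12.93. When only these 6 libraries were fitted, 8 members passed, where 15.3% of all genes did. When libraries were weighted by their quality 8 passed, where 23.3% did. Without AMLN LiFKO replicate 1 or replicate 2 the number was 2, where 14.8% and 16.8% of all genes passed. Without AMLN Control replicate 3 it was 3, where 17.4% of all genes passed.

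**Figure D2:**
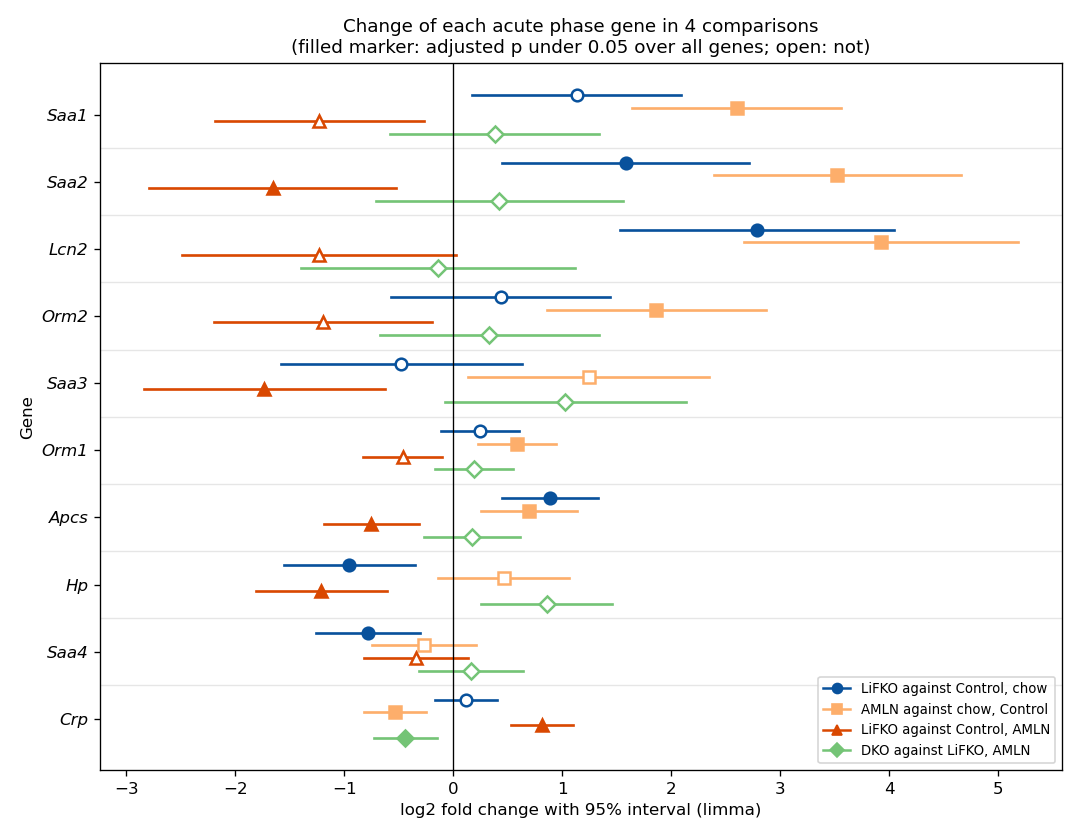
Log2 fold change (horizontal axis) with its 95% interval from limma for the 10 genes in 4 comparisons; filled markers passed at an adjusted p under 0.05 over all genes and open ones did not. For Saa1, Saa2, Lcn2 and Orm2 the AMLN effect in Control lies at 1.86 to 3.93 and the LiFKO effect on AMLN at -1.65 to -1.20; for Hp the LiFKO effect lies at -0.96 on chow and -1.21 on AMLN.

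Whether the effect of Flcn loss depended on diet was tested directly, as the LiFKO against Control difference on AMLN less that on chow. It passed for 2 of the 10 members, where 1.04% of all genes passed. For Lcn2 it was -4.02 (SE 0.83, adjusted p = 0.0346), made up of 2.79 on chow and -1.23 on AMLN. For Apcs it was -1.64 (SE 0.29, adjusted p = 0.0203), made up of 0.89 and -0.75. The Lcn2 call was lost in 9 of 12 fits without 1 library, where the value ranged from -4.54 to -3.56 and the adjusted p from 0.0323 to 0.0895. The Apcs call was lost in 3 of 12. Without chow Control replicate 2, AMLN Control replicate 1 or AMLN Control replicate 2, 0 members passed by limma, where 0.217%, 0.217% and 0.195% of all genes did. With all libraries, 6 lower and 1 higher had an unadjusted p under 0.05 in limma. The next values were -3.24 for Saa2 (SE 0.75, adjusted p = 0.0527), -2.36 for Saa1 (SE 0.63, adjusted p = 0.0878) and 0.70 for Crp (SE 0.19, adjusted p = 0.0907). For Hp the effects on the 2 diets differed by -0.26, with a 95% interval from -1.10 to 0.59.

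Seen from the diet, LiFKO libraries were also compared between chow and AMLN. Among the members Apcs passed, at -0.94 (SE 0.21, adjusted p = 0.0238), where 3.74% of all genes passed, and it lost that call in 4 of 6 fits without 1 library. Lcn2 read 10.38, 10.58 and 9.70 in chow LiFKO and 9.68, 9.97 and 10.74 in AMLN LiFKO, a difference of -0.09 with a 95% interval from -1.35 to 1.17. The corresponding difference was 0.29 for Saa2 (95% interval -0.85 to 1.42) and 0.24 for Saa1 (-0.72 to 1.20). Each of these intervals reaches past 1 log2 unit, so they do not show that the levels were equal. These comparisons share their chow and LiFKO libraries with those above and are not separate evidence.

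Set in order, the Lcn2 means were 7.43 ± 0.98 in chow Control, 9.99 ± 1.44 in AMLN DKO, 10.13 ± 0.55 in AMLN LiFKO, 10.22 ± 0.46 in chow LiFKO and 11.36 ± 0.30 in AMLN Control (SD, n = 3 each). The means of the middle 3 groups lay closer together than the libraries of any of them. Saa2 followed with 9.21 ± 0.71, then 10.80 ± 0.16 in chow LiFKO, 11.08 ± 0.85 in AMLN LiFKO, 11.51 ± 1.26 in DKO and 12.74 ± 0.38 in AMLN Control (SD, n = 3 each), and again no 2 neighbours among the middle 3 differed beyond their spread. For Hp the order was 16.26 ± 0.62 in chow LiFKO, 16.47 ± 0.23 in AMLN LiFKO, 17.22 ± 0.08 in chow Control, 17.33 ± 0.53 in DKO and 17.68 ± 0.18 in AMLN Control (SD, n = 3 each). The 2 LiFKO groups were the lowest for Hp and differed by less than the spread of chow LiFKO.

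The libraries labelled DKO, compared with LiFKO on the same diet, ask which effects of Flcn loss need Tfe3. Flcn itself was lower in DKO than in LiFKO by -0.93 (SE 0.17, adjusted p = 0.00242), so the groups differed in the level of Flcn as well as in Tfe3 genotype, and these cannot be told apart. Of the 10 members Crp passed, where 11% of all genes did. It read 14.89, 14.63 and 15.06 in LiFKO and 14.18, 14.48 and 14.60 in DKO, a difference of -0.44 (SE 0.13, adjusted p = 0.0485). With an adjusted p this near the threshold, the call was lost in 4 of 6 fits without 1 library and under 4 other settings. Hp read 17.93, 17.10 and 16.94 in DKO, all above the LiFKO libraries at 16.20 to 16.61, and its difference of 0.86 did not pass (SE 0.28, adjusted p = 0.0656).

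For Saa1, Saa2 and Lcn2 the DKO libraries were too far apart for a comparison with LiFKO. Lcn2 read 11.62, 9.46 and 8.89 in DKO, a range that takes in all 3 LiFKO libraries, and its difference was -0.14 with a 95% interval from -1.40 to 1.12. Saa2 read 12.83, 11.36 and 10.32 in DKO, and its difference was 0.42 (95% interval -0.71 to 1.56). Saa3 read 9.10, 8.60 and 7.36, and its difference was 1.03 (SE 0.52, adjusted p = 0.238). Without DKO replicate 1 the Lcn2 difference was -0.95 and the Saa2 difference -0.24.

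Against AMLN Control, DKO had 0 members past the test in limma, where 0.651% of all genes passed, and 4 members (Saa2, Lcn2, Apcs and Crp) had an unadjusted p under 0.05. Lcn2 differed by -1.37 (SE 0.59, adjusted p = 0.325). Without DKO replicate 1 the Lcn2 difference was -2.19 and passed (adjusted p = 0.0317). For Hp the difference was -0.35, with a 95% interval from -0.95 to 0.25, beside -1.21 for LiFKO against the same Control libraries.

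These genes varied more between libraries of 1 group than most genes did. The median SD within a group was 0.65 for the 10 members in DKO beside 0.17 over all genes, 0.45 beside 0.17 in chow LiFKO, 0.41 beside 0.16 in AMLN LiFKO, 0.28 beside 0.15 in chow Control and 0.26 beside 0.17 in AMLN Control. Within a group the members tended to be high or low in the same library. In each of DKO replicate 1, AMLN LiFKO replicate 3 and chow Control replicate 1, 9 of 10 members lay above their group mean, by 0.62, 0.46 and 0.40 on average. DKO replicate 3 lay below it by 0.49 on average, with 8 members below. Markers of other cells also set some of these libraries apart, as mean log2 levels. DKO replicate 1 read 10.10 for macrophage markers (9.01 and 9.11 in the other DKO libraries), 6.94 for neutrophil markers (5.60 and 5.68) and 10.76 for stellate cell markers (9.92 and 9.95). AMLN LiFKO replicate 3 read 7.67 for neutrophil markers (6.13 and 6.84) and 10.06 for macrophage markers (9.34 and 9.92). Chow Control replicate 1 was instead the lowest of its group for macrophage markers, at 8.49 (9.35 and 8.93). The part of these cells in the members' deviations was not tested.

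Deviations from the group mean had the same sign as that of Lcn2 in 14 of 15 libraries for Saa1 and for Saa2, in 12 for Apcs, in 11 for Saa3 and Saa4, in 10 for Orm1, Orm2 and Hp, and in 6 for Crp. As a description over 15 libraries, the genes whose centred values lay closest to those of Lcn2 were Saa2 (root mean square difference 0.50) and Saa1 (0.64), followed by Ccdc120 (0.82), Ifi27l2b (0.85) and Ttc39a (0.86). Closest to Saa1 were Saa2 (0.38), Mcm2 and H2-DMa (0.49 each), Lgals3 (0.50) and Mpeg1 (0.53). Hp had a different set, led by Ambp (0.30), Cadm1 (0.31), Dock6, Tmem164 and Apon. Saa3 lay closest to Insc (0.41), Irf7, Oas3 (0.47), Oas1a and Mcm4 (0.51), and Orm2 to Zfp810 (0.44), Cxcl10, Fam124a (0.48), Synj2 (0.49) and H2-Q1 (0.50).

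**Figure D3:**
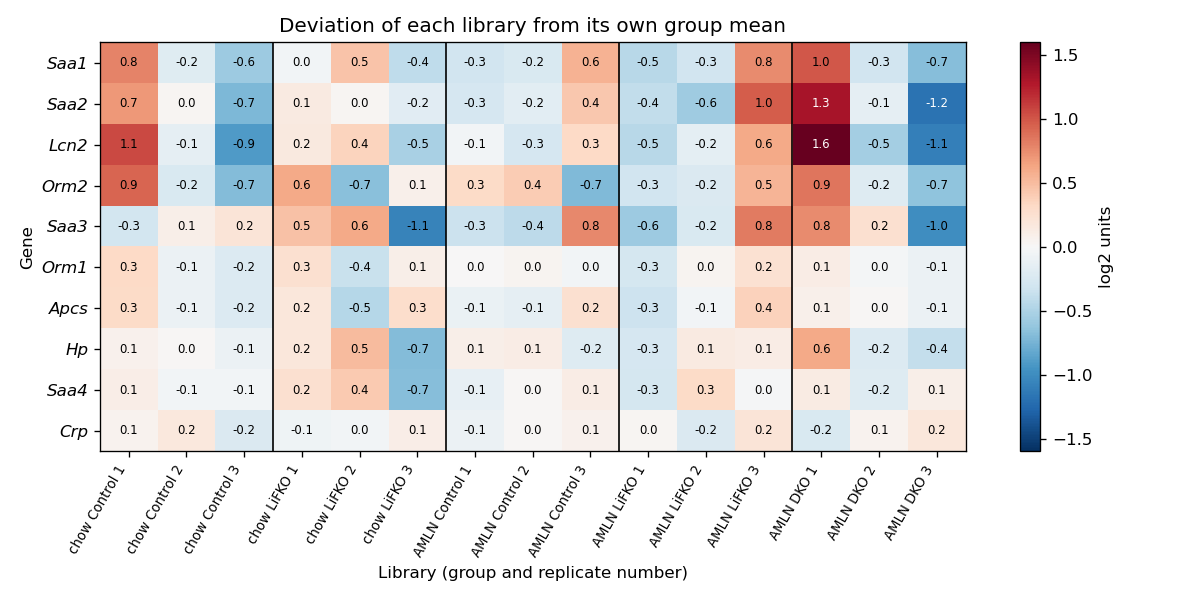
Deviation of each of the 15 libraries (columns) from its own group mean for the 10 genes (rows), in log2 units by colour and number. DKO replicate 1 is high for Lcn2, Saa2 and Saa1 and DKO replicate 3 low, and the Crp row is the palest.

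Other genes of the acute phase response rose and fell in similar numbers. A list of 34 further genes, Spp2 and Ambp among them, was drawn up as positive acute phase genes, a class not checked for each gene. Of these, 5 rose and 5 fell with AMLN in Control (median -0.15), where 11.2% of all genes rose and 11.6% fell (median -0.04). In LiFKO on chow 6 rose and 6 fell (median -0.08), where 12.5% of all genes rose and 13.2% fell (median -0.05). In LiFKO on AMLN 5 rose and 4 fell (median 0.02), where 10.1% of all genes rose and 9.63% fell (median -0.02). With AMLN in Control, Lgals3bp rose (1.20, SE 0.18, adjusted p = 0.000626) and complement C3 fell (-1.49, SE 0.24, adjusted p = 0.00118). In LiFKO on chow, Hpx rose (1.41, SE 0.19, adjusted p = 9.46e-05) and C3 fell (-1.81, SE 0.24, adjusted p = 9.46e-05). Spp2, which encodes a secreted phosphoprotein, rose in LiFKO on chow by 1.34 (SE 0.13, adjusted p = 6.13e-06) and on AMLN by 1.44 (SE 0.13, adjusted p = 5.43e-06), and was lower in DKO than in LiFKO by -1.03 (SE 0.13, adjusted p = 0.000177). Ambp, the precursor of alpha-1-microglobulin and bikunin, went the way of Hp: -0.77 on chow (SE 0.13, adjusted p = 0.000736), -1.08 on AMLN (SE 0.13, adjusted p = 7.17e-05) and 0.69 in DKO against LiFKO (SE 0.13, adjusted p = 0.00387).

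The products of negative acute phase genes fall in the response. Among 13 such genes, 0 rose and 4 fell in LiFKO on chow by limma (0 and 6 at an unadjusted p under 0.05). Of all genes, 12.5% rose and 13.2% fell there. With AMLN in Control 2 rose and 2 fell, where 11.2% of all genes rose and 11.6% fell. In LiFKO on AMLN 1 rose and 3 fell, where 10.1% of all genes rose and 9.63% fell. Serpina6, the cortisol-binding globulin, fell in LiFKO by -2.22 on chow (SE 0.22, adjusted p = 6.89e-06) and by -1.47 on AMLN (SE 0.22, adjusted p = 0.000316), and stood 1.77 higher in DKO than in LiFKO (SE 0.22, adjusted p = 0.000142). Albumin (Alb) fell in LiFKO on chow by -1.0 (SE 0.28, adjusted p = 0.017).

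Of 31 listed receptors and signalling genes upstream of the members, 28 were measured. With AMLN in Control 5 fell and 0 rose by limma (8 and 2 at an unadjusted p under 0.05). Of all genes, 11.6% fell and 11.2% rose there. In LiFKO on chow 4 fell and 0 rose by limma (5 and 0), where 13.2% of all genes fell and 12.5% rose. In LiFKO on AMLN 1 rose and 2 fell, where 10.1% of all genes rose and 9.63% fell. Il6ra, the interleukin 6 receptor, fell with AMLN in Control (-1.54, SE 0.29, adjusted p = 0.00254), was higher in LiFKO than Control on AMLN (1.02, SE 0.29, adjusted p = 0.0208) and lower in DKO than LiFKO (-0.96, SE 0.29, adjusted p = 0.0443). Stat3 fell with AMLN in Control (-0.68, SE 0.20, adjusted p = 0.0276), and Lifr, the receptor of leukaemia inhibitory factor, fell there too (-1.36, SE 0.24, adjusted p = 0.00173). Of 16 measured among 19 receptors and partners of the members' proteins, 3 rose in LiFKO on chow, among them Cd36, a scavenger receptor (2.89, SE 0.27, adjusted p = 4.25e-06), and Hmox1, which breaks down haem (1.80, SE 0.21, adjusted p = 3.5e-05). On AMLN 2 of the 16 rose in LiFKO, and in DKO against LiFKO 3 were lower, Hmox1 by -1.38 (SE 0.21, adjusted p = 0.000846).

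Markers of other liver cells moved with the same diet contrast as Lcn2 and Saa genes. With AMLN in Control, 7 of 18 measured macrophage markers and 5 of 9 measured stellate cell markers rose, where 11.2% of all genes rose. So did 1 of 6 cholangiocyte markers, Spp1 (2.38, SE 0.45, adjusted p = 0.00257). The summed macrophage level, as log2, ran from 14.40 to 15.37 in chow Control and from 15.16 to 15.38 in AMLN Control, and the stellate level from 13.58 to 14.18 and from 14.11 to 14.67. Adgre1 and Spi1, further macrophage markers, had no row. The part of these cells in the members' RNA was not tested. In LiFKO on AMLN 3 macrophage markers rose and 1, Lgals3, fell (-1.40, SE 0.38, adjusted p = 0.0174), with a summed level from 15.13 to 15.87. Of all genes, 10.1% rose and 9.63% fell there. On chow the 1 macrophage marker that rose in LiFKO was Cd68 (2.22, SE 0.27, adjusted p = 3.74e-05), a lysosomal protein, where 12.5% of all genes rose. The summed macrophage level ran from 14.60 to 14.99 in chow LiFKO.

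Neutrophils, which store Lcn2 and Hp proteins, left few markers. Of 13 listed, 4 were in the table (S100a8, S100a9, Csf3r and Cxcr4), and Ly6g, Elane, Mpo, Camp, Ngp, Ltf, Cxcr2, Mmp8 and Retnlg had no row. Their summed level ran from 8.32 to 8.58 in chow Control, from 8.03 to 8.36 in chow LiFKO, from 8.77 to 9.04 in AMLN Control, from 8.38 to 9.80 in AMLN LiFKO and from 8.17 to 8.96 in DKO. In LiFKO on chow 0 of the 4 passed by limma, and 0 had an unadjusted p under 0.05, where 25.7% of all genes passed. S100a8 differed there by 0.12 with SE 0.86 and S100a9 by -1.03 with SE 0.55. With AMLN in Control 1 of the 4 passed, Cxcr4 (0.80, SE 0.27, adjusted p = 0.0465), where 22.8% of all genes passed. The part of neutrophils in the Lcn2 and Hp levels was not tested. All 14 hepatocyte markers were measured, and their summed level was lower in chow LiFKO (21.60 to 22.04) than in chow Control (22.28 to 22.37). On AMLN it was 21.71 to 21.80 in LiFKO, 22.20 to 22.27 in Control and 22.24 to 22.29 in DKO. The summed level is set by the most abundant markers, such as Alb. The mean log2 level of the same 14 overlapped between Control and LiFKO on each diet. It was 17.08 to 17.28 in chow Control and 16.99 to 17.25 in chow LiFKO, and 16.79 to 16.96 in AMLN Control and 16.70 to 16.89 in AMLN LiFKO. In DKO it was 17.04 to 17.12, above all libraries of the other AMLN groups. The part of hepatocyte RNA in the Hp result was not tested. Of 8 adipocyte markers 2 were measured, and Adipoq, Lep and Plin1 had no row. Of these 2, Cfd rose with AMLN in Control by 4.44 (SE 0.59, adjusted p = 0.00037).

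TFE3 peaks were listed near all 10 members in LiFKO liver and near fewer in Control. A gene was counted where the centre of a peak lay in it or within 10 kb of either end. Each list was called by the authors on pooled libraries, so it has no replicates, and longer lists put peaks near more genes of any kind. In the chow lists, 5 of 10 members had a peak in Control (11385 peaks, near 48.1% of all measured genes) and 10 of 10 in LiFKO (26445 peaks, near 73.7%). In the FPC lists the counts were 3 in Control (9647 peaks, near 41.5% of genes) and 10 in LiFKO (27751 peaks, near 71.6%). With the SREBP-1c transgene added to the FPC diet they were 2 in Control+1c (near 43.6% of genes) and 10 in LiFKO+1c (near 79.8%). Per the file headers, 3 of the 4 FPC TFE3 lists (Control, Control+1c and LiFKO) were called with a library named input among the pooled ChIP libraries and a TFE3 library as the input, so their peaks are given as the authors' lists have them and no more; the chow lists and the LiFKO+1c list show no such exchange. With a window of 2 kb, chow LiFKO kept 4 members (65.2% of genes) and chow Control 2 (39.4%), shares below those of all genes. FPC LiFKO kept 8 (62.0%) and LiFKO+1c 8 (71.2%), shares above them. Every window includes the gene itself, and all 10 members are shorter than the median gene, at 19608 bases. Shares of members and of all genes thus come from stretches of unlike length.

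Of the 7 peaks at members in the chow Control list, 6 (85.7%) overlapped a peak of the chow LiFKO list by at least 1 bp, as did 82.3% of all chow Control peaks. In the other direction 6 of 14 (42.9%) overlapped, as did 35.4% of all chow LiFKO peaks. For the FPC lists, 3 of 23 peaks at members in LiFKO (13%) overlapped a peak of FPC Control, as did 26.8% of all FPC LiFKO peaks.

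Peaks are given on mm9 as the authors' lists have them, with HOMER's score, which was compared within a list only. At Apcs, a peak centred 221 bases before the start (chr1:174825313-174825499) scored 7.83 in chow Control, and one centred 211 bases before it (chr1:174825303-174825489) scored 12.3 in chow LiFKO. These were low in their lists, at the 13.8th and 26.7th percentiles of score. FPC LiFKO had its peak 65 bases before the start (chr1:174825167-174825333, score 13.9) and FPC Control had none there. The Apcs promoter printed above holds the M-box, but its build is GRCm38 and the peaks are on mm9, so the distance between peak and M-box was not computed.

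Crp had a peak at its start in the LiFKO lists alone among the 4 lists without the transgene. In chow LiFKO it was centred 226 bases before the start (chr1:174627868-174628054) with a score of 25.9, at the 71.7th percentile, and in FPC LiFKO 258 bases before it with a score of 8.15. Lcn2 had no peak within 10 kb in the Control lists. In chow LiFKO it had 1, at 2863 bases past the far end of the gene (chr2:32237197-32237383, score 25.2), and in FPC LiFKO 2, of which one lay 143 bases before the start (chr2:32243377-32243543, score 13.1). The chow LiFKO list held no peak at the Lcn2 start. The part of TFE3 binding in the Lcn2 RNA was not tested.

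In the Saa cluster, where Saa3, Saa4, Saa1 and Saa2 follow each other on chromosome 7 within 42.3 kb, the peaks of the chow lists lay between genes and not at their starts. A pair of peaks between Saa1 and Saa2 was in both chow lists: chr7:54001251-54001437 and chr7:54001865-54002051 in Control (scores 18.2 and 13.6) and chr7:54001255-54001441 and chr7:54001876-54002062 in LiFKO (31.6 and 27.3). They lay 2994 to 3619 bases before the start of Saa1 and 5234 to 5859 before that of Saa2, and each counts for both genes. A peak between Saa3 and Saa4 (chr7:53975101-53975287), 4148 bases before the Saa3 start, was in the LiFKO lists and not in the Control lists, and with a score of 40.3 stood at the 91st percentile of chow LiFKO.

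Orm1 had a peak inside the gene in every one of the 6 TFE3 lists, such as chr4:63007824-63008010 in chow Control (score 18) and chr4:63007826-63008012 in chow LiFKO (score 38.0). It was also the 1 member with a peak in the HA lists, made for HA-tagged nuclear SREBP-1c. These peaks were in Control+1c (score 10.9) and LiFKO+1c (score 10.5), where 9.35% and 7.24% of all genes had one. The header of the HA list of LiFKO+1c names a TFE3 library, so that peak is given as the list has it and no more. Orm2 had peaks before its start, the nearest 87 bases away in FPC LiFKO (score 20.4) and 5184 in chow LiFKO (score 20.8). Hp had 3 peaks within 10 kb in each chow list, none closer than 3473 bases, and in FPC LiFKO one 86 bases from an end of the gene (score 9.87). In the authors' deposited table of TFE3 peaks that differ between LiFKO+1c and LiFKO, 0 of 96 peaks lay within 50 kb of a member. Its header names an input library among the background, so this count too is given as the list has it.

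**Figure D4:**
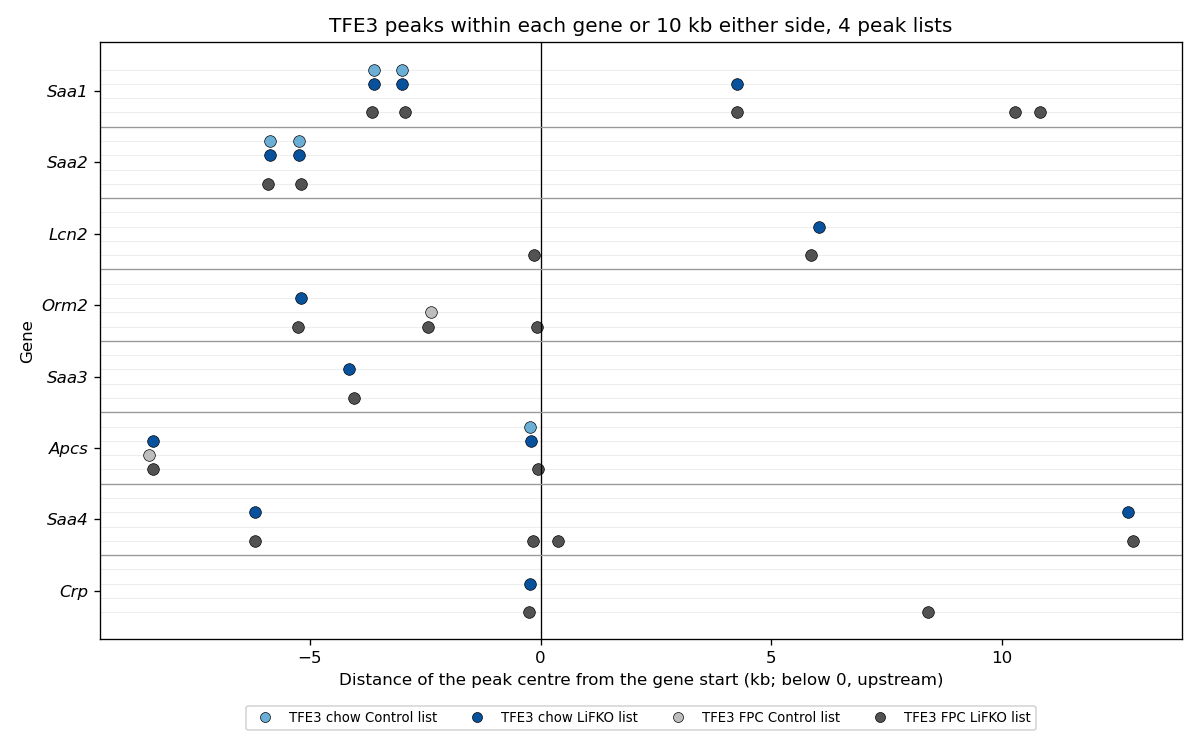
Distance of TFE3 peak centres from the gene start (horizontal axis, kb; below 0 is upstream) for the 8 members whose strand RefSeq gives, in 4 lists (colours); each point is 1 peak within the gene or 10 kb of it. At Lcn2, Saa3, Saa4 and Crp, points appear in the LiFKO lists only, and at Apcs and Crp chow LiFKO points lie 211 and 226 bases before the start.

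A chow LiFKO peak with no overlapping chow Control peak lay near 9 of the 10 members, all but Saa2, and near 58.8% of all 13815 genes. The 9 take in Lcn2 and Apcs, which rose in LiFKO on chow, Hp and Saa4, which fell, and Saa1, Saa3, Orm1, Orm2 and Crp, which did not pass. Saa2 rose with 2 peaks, both also in the Control list. RNA came from mice fed their diet for at least 17 weeks and then fasted, and ChIP from mice fed freely, so the 2 kinds of data are set side by side and were not tested together.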

How the data were processed

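The authors deposited normalized log2 expression for 13815 genes in 15 mouse liver RNA-seq libraries. Per the submitters' processing notes, reads were trimmed with Trimmomatic 0.32 and aligned to mm9 with STAR 2.6.0c, with featureCounts and limma among the tools. The maximum was 21.47 in every library and the medians ran from 9.79 to 9.80, the mark of quantile normalization; no offset or length scaling is stated. No counts were used, so depth is unknown and limits the precision to an extent that cannot be given. TFE3 and HA peak lists hold the HOMER score of pooled libraries on mm9, per the file headers; per the submitters' processing notes, chow reads went through Bowtie2 2.2.8 and HOMER 4.11 and FPC reads through Bowtie2 2.2.6 and HOMER 4.4. The listed peaks are those over input together with those over a background ChIP, per the file headers. A deposited differential list of the authors also holds a log2 fold change per peak, of which none is printed.

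Groups came from the labels. A mean per group was fitted to all 15 libraries (limma 3.58.1 in R 4.3.3, 10 residual degrees of freedom, empirical Bayes with trend), p-values were adjusted by Benjamini-Hochberg over all 13815 genes in each of 7 comparisons, and adjusted p under 0.05 was called. Tested on simulated data for the chow comparison with 13815 genes, this found 69% of changes of 1 log2 unit and 95% of changes of 2, with 9 false calls. The changed genes, 100 of each size, were drawn at random from all genes, with independent noise and no difference in the rest. In the data 25.7% of genes passed the chow comparison, which gives the adjustment another cutoff. The shares found thus hold for the simulated setting only. The members had a higher median SD than all genes in every group, so these shares may be too high for them. Named genes are the 10 members, Flcn, Tfe3, up to 4 genes with the smallest p per list and comparison, and for 5 members the 5 genes with the closest pattern. A peak belonged to a gene where its centre lay in it or within 10 kb. Promoter sequences are those of RefSeq, GRCm38.p6, with the strand taken from there. Alternatives changed the variance model, the libraries fitted, weights, filters, centring, replicate block, window and score. Members and lists were chosen with earlier results of these data known. Comparisons share libraries.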

Additional observations from a re-analysis of the deposited data

Results flagged for a closer look

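The effect of Flcn loss on Lcn2 differed between diets by a test of the difference itself. LiFKO less Control was 2.79 on chow and -1.23 on AMLN, a difference of -4.02 on the log2 scale (SE 0.83, limma adjusted p = 0.0346 over all genes, n = 3 libraries per group). On chow all 3 LiFKO libraries lay above all 3 Control libraries, and on AMLN all 3 lay below. The Apcs effect also differed between diets, by -1.64 (SE 0.29, limma adjusted p = 0.0203), from 0.89 on chow to -0.75 on AMLN, again with all 3 LiFKO libraries above Control on one diet and below on the other. The Lcn2 call was lost in 9 of 12 fits that left out 1 library and the Apcs call in 3 of 12.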

How the results depend on the processing

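Of 483 log2 differences of the members under settings that kept all libraries, 458 kept direction and side of the threshold, 12 lost a call, 13 gained one and 0 reversed. Of 480 from fits without 1 library, 402 kept both, 50 lost a call, 6 gained one and 22 reversed. The number of members passing for LiFKO against Control on AMLN was 8 with only the groups compared (15.3% of all genes) and 8 with array weights (23.3%). For DKO against LiFKO it was 0 in place of 1 without trend (9.19% of all genes), with only the groups compared (7.96%) and with array weights (13.7%). For AMLN against chow in LiFKO it was 0 with only the groups compared (1.56%). For the test of the difference between diets it was 1 without trend (0.521%), 1 with robust fitting (1.04%) and 5 with array weights (3.86%), in place of 2. The cause was not tested.

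Leaving out 1 library gave 2 to 4 members for LiFKO against Control on chow (19.5% to 21% of all genes). It gave 4 to 7 for AMLN against chow in Control (14% to 23.6%) and 2 to 7 for LiFKO against Control on AMLN (14.8% to 17.4%). Members numbered 0 to 1 for DKO against LiFKO (7.17% to 9.27%) and 0 to 1 for DKO against Control (0.174% to 1.67%). They numbered 0 to 1 for AMLN against chow in LiFKO (1.27% to 3.6%), and 0 to 3 for the difference between diets (0.195% to 2.42%).

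None of the 22 reversals concerned a value that passed. For the values concerned, each range here covers all fits without 1 library, reversed or not. Differences ranged from -0.78 to 0.06 for Saa3 in LiFKO on chow. In DKO against LiFKO they ranged from -0.95 to 0.41 for Lcn2, from -0.11 to 0.76 for Saa1, from -0.24 to 1.01 for Saa2 and from -0.10 to 0.65 for Orm2. In AMLN against chow in LiFKO they ranged from -0.55 to 0.29 for Saa3, from -0.40 to 0.13 for Lcn2, from -0.30 to 0.02 for Orm1, from -0.10 to 0.53 for Orm2, from -0.17 to 0.38 for Saa4, from -0.14 to 0.46 for Hp, from -0.14 to 0.47 for Saa1 and from -0.20 to 0.57 for Saa2. For Hp in the difference between diets the range was -0.60 to 0.00.

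With the replicate number as a block the count was 0 in place of 1 for DKO against LiFKO, where Crp lost its call and 10.2% of all genes passed. The other 6 counts did not change. No clear pairing by number was seen. Deviations of same-numbered libraries correlated from -0.185 to 0.237 over 30 pairs and of others from -0.238 to 0.21 over 60. For 6 of 15 libraries the best partner bore the same number. With 3 libraries per group, a weak effect shared by number could have been missed.

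With a window of 2 kb, members with a TFE3 peak numbered 2 (chow Control), 4 (chow LiFKO), 1 (FPC Control) and 1 (FPC Control+1c). That window took in 39.4%, 65.2%, 33.2% and 34.3% of all genes. With 50 kb they numbered 10 (chow Control), 9 (FPC Control) and 8 (FPC Control+1c), where 68.5%, 65.1% and 68.1% of all genes had a peak. With peaks of at least the median score they numbered 0 in FPC Control (28.7% of all genes) and 1 in FPC Control+1c (30.3%). Members with an HA peak numbered 2 in Control+1c and 2 in LiFKO+1c with 50 kb, in place of 1 each, where 19.3% and 15.8% of all genes had one. A smaller window takes in fewer peaks by construction. The depth of the RNA libraries is unknown, and each peak list is 1 pooled call.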
